A study of Mus musculus with 4 samples.

Results

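Transforming growth factor beta (TGF-beta) genes were examined in single cells of whole mouse lung, in a matrix of 20076 genes. The 9 members were the ligands Tgfb1, Tgfb2 and Tgfb3, the receptors Tgfbr1, Tgfbr2 and Tgfbr3, and the matrix genes Tgfbi, Bgn and Ltbp2. Of these, 7 were listed by function. Tgfbi and Bgn were chosen by their higher counts in endothelial cells (ECs) of these same libraries, so their EC values are given as a description with no test. The WT group was 2 mice homozygous for floxed ERG (ERG fl/fl) that lacked Cre. The ERG CKO group was 2 mice that carried, beside ERG fl/fl, CDH5-CreER(T), a Cre driven by an EC promoter and switched on by tamoxifen. The methods describe a C57/BL6 background and 5 daily injections of 0.5 mg tamoxifen, and the lungs were taken 90 days after tamoxifen. The floxed alleles were thus shared by both groups, and Cre was present in the ERG CKO mice alone, so an effect of Cre itself cannot be told apart from loss of ERG. The age of the mice is not given in the sources used here.

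TGF-beta ligands are secreted in a latent form, held in the matrix by latent TGF-beta binding proteins, and released by integrins and proteases. The active ligand binds the type II receptor (Tgfbr2), which recruits the type I receptor (Tgfbr1), and phosphorylated SMAD proteins then carry the signal to the nucleus, while betaglycan (Tgfbr3) presents ligand to the type II receptor. Tgfbi encodes a secreted matrix protein first found as a TGF-beta-induced gene, Bgn encodes biglycan, a small leucine-rich proteoglycan that binds TGF-beta, and Ltbp2 encodes a matrix protein related to the latent TGF-beta binding proteins. In the lung the pathway is best known for driving fibroblasts to deposit matrix. ERG is an ETS family transcription factor of ECs.

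The 4 libraries held 1852 to 3097 cells, 9363 in all, with 11263911 to 18646776 unique molecular identifiers (UMIs, each 1 captured RNA molecule) and median depths of 4611 to 4899 UMIs per cell. Only 7 barcodes occurred in more than 1 library. Cell classes were rebuilt from marker genes, and 15 classes were named, of which 13 had at least 10 cells in every library and were tested. Levels are CPM, the UMIs of a gene per 1000000 UMIs of the class in 1 library, and with 2 mice per group an exact permutation test of a single value cannot go below p = 0.333. Erg, the targeted gene, was at 85.6 and 88.5 CPM in ECs of WT mice and at 104 and 82.4 CPM in ECs of ERG CKO mice, which overlap. Counts per gene do not tell whether the floxed exons are missing, so higher and lower refer throughout to the genotype on the label. In both groups replicate 1 carried Xist and no Ddx3y, a Y-linked gene, and replicate 2 the reverse, so the replicate number coincides with sex-linked expression.

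ECs were the largest class, with 2511 cells. The share of all genes higher there in both ERG CKO libraries than in both WT libraries is not given here. Among the members Tgfb2, Tgfbr2, Tgfbi and Bgn were, and Tgfbi and Bgn had been chosen for that rise. Their promoters are shown because ETS factors such as ERG bind DNA at a short core motif. In the mm10 build, Tgfbi lies on chromosome 13 from 56609523 to 56639562, Bgn on chromosome X from 73483602 to 73495933, Tgfb2 on chromosome 1 from 186622792 to 186705989 and Tgfbr2 on chromosome 9 from 116084293 to 116175360. The stretches below are RefSeq sequence of the GRCm38.p6 build before the start site, 5′ to 3′ on the strand of the gene, with each match to the ETS core GGAA (either strand, so TTCC when reversed) in capitals. For Tgfbi 187 bases are shown, which end where the annotated gene begins, and for the other 3 genes 250 bases.
Tgfbi (chr13:56609336-56609522, plus strand): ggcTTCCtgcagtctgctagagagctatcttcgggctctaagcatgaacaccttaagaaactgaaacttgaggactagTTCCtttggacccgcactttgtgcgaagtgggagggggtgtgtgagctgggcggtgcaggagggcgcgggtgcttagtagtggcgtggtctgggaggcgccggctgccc
Bgn (chrX:73483351-73483600, plus strand): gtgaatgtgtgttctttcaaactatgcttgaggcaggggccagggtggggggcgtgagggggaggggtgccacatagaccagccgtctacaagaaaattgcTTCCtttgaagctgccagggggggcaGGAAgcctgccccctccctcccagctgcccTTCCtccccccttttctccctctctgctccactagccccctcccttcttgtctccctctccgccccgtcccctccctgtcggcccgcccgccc
Tgfb2 (chr1:186705990-186706239, minus strand): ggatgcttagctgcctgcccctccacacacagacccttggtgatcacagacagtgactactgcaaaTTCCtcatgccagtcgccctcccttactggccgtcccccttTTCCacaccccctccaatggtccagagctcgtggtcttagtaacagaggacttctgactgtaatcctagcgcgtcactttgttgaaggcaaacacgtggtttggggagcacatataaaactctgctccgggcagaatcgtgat
Tgfbr2 (chr9:116175364-116175613, minus strand): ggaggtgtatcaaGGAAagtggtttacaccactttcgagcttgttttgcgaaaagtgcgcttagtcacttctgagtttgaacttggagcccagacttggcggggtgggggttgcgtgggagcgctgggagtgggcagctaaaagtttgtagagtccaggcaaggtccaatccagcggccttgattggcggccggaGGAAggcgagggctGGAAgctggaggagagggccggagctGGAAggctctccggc
In windows of 250 bases the core occurred 3 times at Tgfbi, 3 times at Bgn, 2 times at Tgfb2 and 4 times at Tgfbr2. The median was 3 over all 32841 promoters of that length, and 93.5% of them held at least 1 match, so the count was no mark of these genes. The SMAD box CAGAC, searched on both strands, occurred 2 times at Tgfbi, 2 times at Tgfb2, 1 time at Tgfbr2 and 0 times at Bgn, and 42.2% of all promoters held it. A match is a match of letters and no evidence of binding.

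Tgfbi was nearly absent from ECs of WT mice and present in ECs of both ERG CKO mice. WT replicate 1 had 3.31 CPM (9 UMIs) and replicate 2 had 3.14 CPM (10 UMIs), while ERG CKO replicate 1 had 93.8 CPM (435 UMIs) and replicate 2 had 223 CPM (596 UMIs). The ratio of the group means was 49.2, and the edgeR log2 fold change was 5.54 (SE 0.52). Of the WT ECs, 1.21% (95% exact binomial interval 0.487 to 2.47) and 1.29% (0.592 to 2.44) held a Tgfbi UMI, compared with 18.8% (16.0 to 21.8) and 31.5% (27.4 to 35.7) of the ERG CKO ECs, intervals that cover counting error only. With every cell reduced at random to 1000 UMIs and 3 to 9 shallower cells per library dropped, the shares were 0.520% and 0.581% against 4.81% and 14.9%. B cells, in which the gene is not expected, gave the background: no WT B cell held a UMI, and 1.59% and 1.03% did in ERG CKO, at median depths of 3942 to 5062 UMIs beside 4012 to 5488 in ECs. The UMIs were spread differently in the 2 ERG CKO mice. In replicate 1 a single cell held 46 UMIs and the 10 highest cells held 37.5% of the total, whereas in replicate 2 no cell held more than 14 and the 10 highest held 17.8%.

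Bgn was present in ECs of every mouse and higher in both ERG CKO libraries. Its levels were 125 and 104 CPM in WT and 273 and 209 CPM in ERG CKO, a ratio of means of 2.11 and a log2 fold change of 1.04 (SE 0.18). Bgn UMIs occurred in 19.0% and 14.5% of WT ECs, compared with 44.5% (40.9 to 48.2) and 33.3% (29.1 to 37.6) of those labelled ERG CKO. In B cells the share was 0.478% to 2.79%.

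Among the 6 members tested in ECs, 2 passed the test and both were higher in ERG CKO, beside 2.87% of the 10714 genes tested that passed in either direction and 1.72% that passed as higher. Tgfb2, a ligand, was at 11.8 and 17.6 CPM in WT (32 and 56 UMIs) and at 45.1 and 73.8 CPM in ERG CKO (209 and 197 UMIs), and the groups did not overlap. It rose by 1.94 on the log2 scale (SE 0.29, edgeR adjusted p = 0.0201). Without WT replicate 1 the call was lost (1.70, adjusted p = 0.0552), and it was kept in the other 14 alternatives. Tgfb2 UMIs were found in few cells, 3.28% and 4.16% of WT ECs beside 10.1% and 12.6% in ERG CKO. In ERG CKO the 10 highest cells held 42.6% and 53.3% of them. With the single highest cell among the ECs of all libraries left out the change was 1.83.

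Tgfbr2, the type II receptor, was at 81.5 and 85.6 CPM in WT and at 132 and 128 CPM in ERG CKO, with 222 to 612 UMIs per library and no overlap. It rose by 0.60 (SE 0.12, adjusted p = 0.0469), just inside the threshold of 0.05. The call did not hold in 7 of 15 alternatives, with changes from 0.55 to 0.84 over all 15 and an adjusted p of 0.134 with DESeq2. Leaving out WT replicate 1 (0.57, adjusted p = 0.289), WT replicate 2 (0.63, adjusted p = 0.241) or ERG CKO replicate 1 (0.55, adjusted p = 0.0563) lost it.

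The other members did not pass the test in ECs. Tgfb1 was at 164 and 170 CPM in WT and at 146 and 140 CPM in ERG CKO, lower in both ERG CKO libraries by a log2 fold change of -0.26 (SE 0.12, edgeR adjusted p = 0.335). Tgfbr1 was at 29.7 and 30.7 against 36.0 and 28.5 CPM (log2 fold change 0.07, SE 0.18, adjusted p = 0.901), so the groups overlapped. Tgfbr3 was at 85.2 and 80.9 against 83.0 and 111 CPM, also overlapping (0.18, SE 0.16, adjusted p = 0.678). Ltbp2 reached at most 6.47 CPM in ECs (0.92, SE 0.86, adjusted p = 0.690) and Tgfb3 at most 3.67 CPM, and Tgfb3 had too few counts to be tested in any class.

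**Figure D1:**
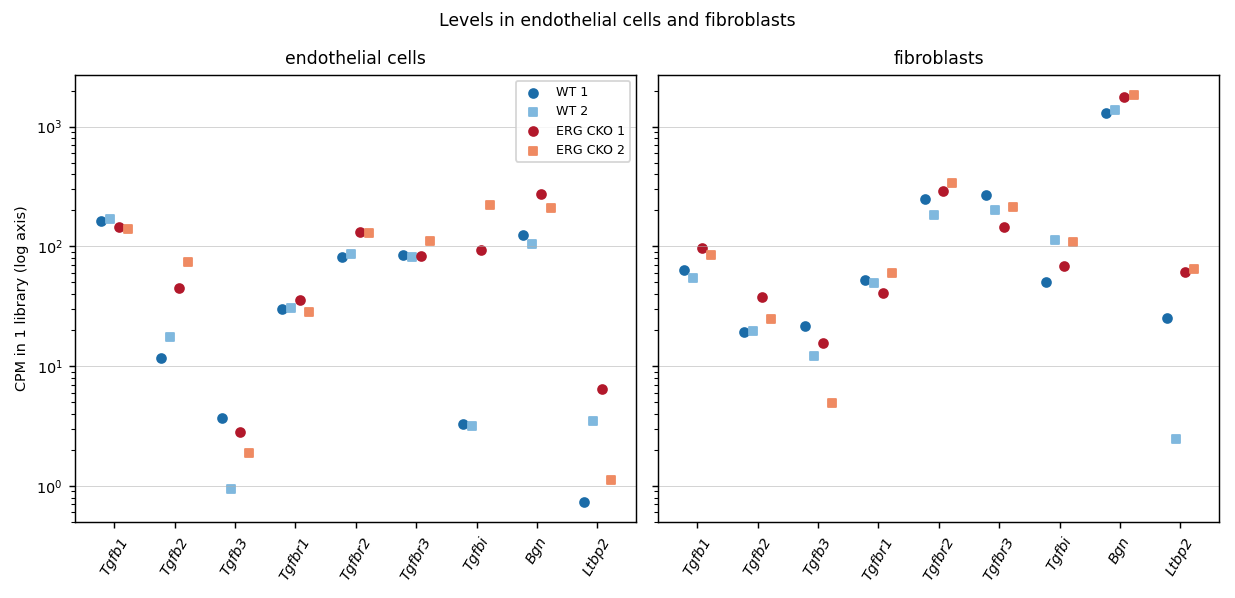
Levels of the 9 genes in ECs (left) and fibroblasts (right) on a log axis of CPM, with 1 point for each of the 2 WT and 2 ERG CKO libraries and no error bars. In ECs the ERG CKO points of Tgfbi (93.8 and 223 CPM) lie far above the WT points (3.31 and 3.14 CPM), with smaller gaps for Tgfb2, Tgfbr2 and Bgn, and in fibroblasts the gap of Ltbp2 is the widest (25.2 and 2.45 against 61.3 and 64.4 CPM).

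Transcripts of other cells were more frequent among the ERG CKO ECs. The 4 haemoglobin genes, 4 of 4 higher in both ERG CKO libraries, summed to 34.9 and 50.5 CPM in WT but to 1522 and 2219 CPM in ERG CKO. The 8 leukocyte markers summed to 142 and 131 against 267 and 179 CPM, with 7 of 8 higher and Cd68 lower in both, and none was at 0. Of these, Lyz2 was highest, at 53.6 and 64.3 against 131 and 85.0 CPM, while Csf1r, a receptor of macrophages, was at 0.735 and 1.25 against 1.51 and 1.87 CPM. The platelet markers Ppbp and Pf4 summed to 39.3 and 81.9 against 192 and 110 CPM. The 4 adventitial fibroblast markers summed to 16.5 and 13.2 against 25.4 and 48.7 CPM, without overlap. The 6 mesenchyme markers summed to 79.3 and 54.0 against 96.6 and 61.4 CPM, and the 9 mural markers to 116 and 104 against 120 and 91.4 CPM. ECs with fewer than 2 leukocyte and fewer than 2 mesenchyme marker genes detected were then taken, whatever the UMIs of a single marker. In them Tgfbi was at 3.41 and 3.59 CPM in WT and at 67.8 and 221 CPM in ERG CKO. Bgn was at 94.3 and 101 against 249 and 184 CPM. In the same cells Tgfb2 (2.23, adjusted p = 0.00839) and Tgfbr2 (0.59, adjusted p = 0.0417) passed the test. The part of haemoglobin and platelet transcripts was not tested. In cells counted this way, more cells with a transcript and more transcript per cell cannot be told apart in a summed level.

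ECs were then clustered again without the members, the pathway genes below and the genes called in ECs, and named from subtype markers. Of the 2511 ECs, 1775 were gCap-like (general capillary), 328 aCap-like (aerocytes, the capillary cells lining the air spaces), 163 vein-like, 63 artery-like and 25 lymphatic-like, and 133 and 24 cells in clusters carrying platelet and mural genes or lymphocyte genes stayed unnamed. The mix differed between the groups: aCap-like cells were 44 of 580 and 71 of 697 ECs in WT mice, as against 113 of 735 and 100 of 499 in the ERG CKO mice, and gCap-like cells were 451 and 527 as against 462 and 335. The part of this mix in the EC values was not tested, and the values within subtypes are given with no test.

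Tgfbi was found across capillary and venous cells of the ERG CKO mice, with the highest level in aCap-like cells of 1 mouse. In aCap-like cells it was at 6.07 and 5.77 CPM in WT and at 70.2 and 614 CPM in ERG CKO. A Tgfbi UMI was found in 83.0% (74.2 to 89.8) of aCap-like cells of ERG CKO replicate 2 and in 23.9% (16.4 to 32.8) of those of replicate 1, so the 2 mice differed beyond counting error. In gCap-like cells both ERG CKO mice were alike, at 82.8 and 102 CPM against 1.07 and 1.95 CPM in WT. In vein-like cells WT had 0 UMIs in 76 cells and ERG CKO had 66.4 and 29.7 CPM, at least 10.9-fold higher than a floor of 3 counts over the WT group, and at least 12.1-fold (38 UMIs) and 5.43-fold (4 UMIs) in each library alone. In artery-like cells no Tgfbi UMI was found in 32 WT and 31 ERG CKO cells, which allows up to 9.38% and 9.68% of cells to hold a UMI. This limits cells with a captured UMI and not cells that express the gene, and for single libraries the exact intervals reach 16.1% to 30.8%. The unnamed cluster with platelet and mural genes held Tgfbi at 230 and 317 CPM in ERG CKO and 0 UMIs in 53 WT cells. Lymphatic-like cells differed, with a Tgfbi UMI in 3 of 7 and 2 of 7 WT cells and in 2 of 8 and 0 of 3 ERG CKO cells.

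Bgn showed another pattern. It was already high in the larger vessels of WT mice, at 705 and 692 CPM in vein-like and 750 and 470 CPM in artery-like cells, and the ERG CKO values there were 708 and 632 and 363 and 567 CPM. The groups overlapped in both. In gCap-like cells Bgn was at 33.8 and 23.8 CPM in WT and at 138 and 136 CPM in ERG CKO, and in aCap-like cells at 36.4 and 3.85 against 330 and 228 CPM. In both capillary subtypes the groups did not overlap.

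Tgfb2 in WT ECs lay mostly in veins, at 105 and 125 CPM in vein-like cells, 3.22 and 5.84 CPM in gCap-like cells and 0 UMIs in 115 aCap-like cells. In ERG CKO it was at 163 and 74.3 CPM in vein-like cells, overlapping WT, at 28.5 and 52.9 CPM in gCap-like cells and at 23.9 and 149 CPM in aCap-like cells. The aCap-like level was at least 22.9-fold higher than a floor of 3 counts over the WT group, at least 6.76-fold in ERG CKO replicate 1 alone (17 UMIs) and at least 42.2-fold in replicate 2 alone (89 UMIs). Artery-like cells held 0 Tgfb2 UMIs in 32 WT cells, and 3 UMIs (21.8 CPM) and 13 UMIs (123 CPM) in ERG CKO. Tgfbr2 was at 70.3 and 71.5 CPM in gCap-like cells of WT and at 101 and 109 CPM in ERG CKO, and at 72.8 and 75.0 against 145 and 156 CPM in aCap-like cells, with no overlap in either. Lymphatic-like cells had the highest Tgfbr2 level, 599 to 1511 CPM, in 3 to 8 cells per library.

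**Figure D2:**
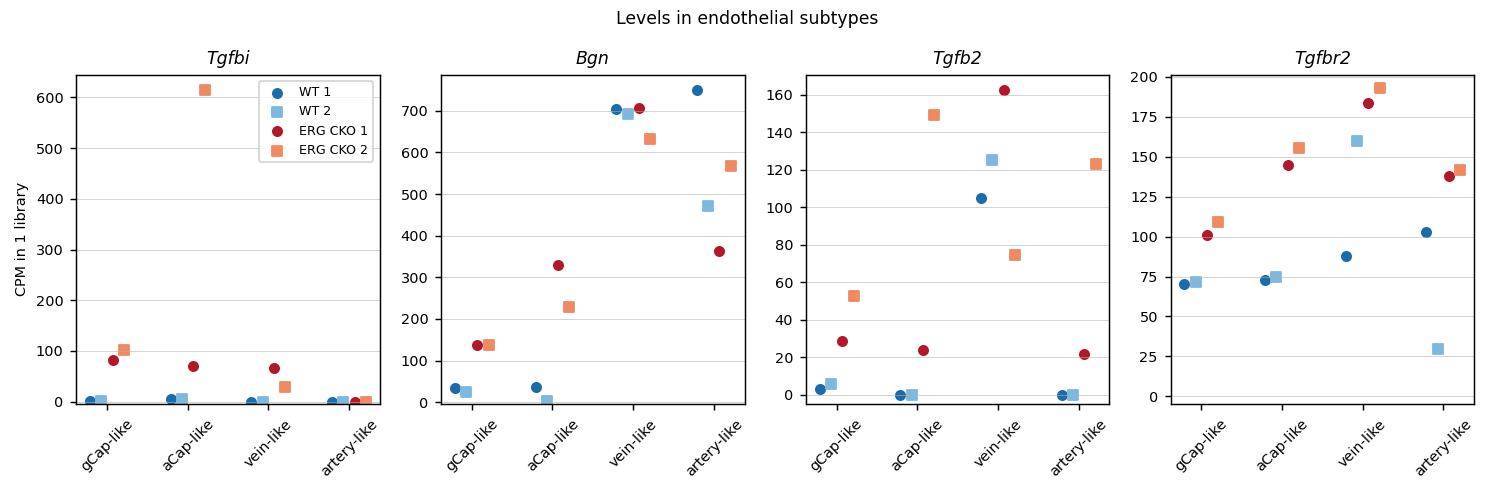
Levels (CPM, linear axis) of Tgfbi, Bgn, Tgfb2 and Tgfbr2 in gCap-like, aCap-like, vein-like and artery-like ECs, with 1 point per library. Bgn in vein-like cells is alike in all 4 libraries (632 to 708 CPM), while in capillary cells the ERG CKO points lie above the WT points, and the 614 CPM of Tgfbi in aCap-like cells comes from ERG CKO replicate 2 alone.

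The other genes of the pathway were taken from 4 lists of 74 genes. In ECs 65 were tested, and 7 rose and 2 fell (13.8%, beside 2.87% of all genes), with a median log2 fold change of 0.20 beside 0.01 over all genes. Of 28 target genes tested, 3 rose, 1 fell and 24 did not pass. Ctgf, a matricellular protein, went from 69.0 and 47.7 to 375 and 173 CPM (log2 fold change 2.21, SE 0.37, edgeR adjusted p = 0.0274). Fn1, fibronectin, went from 3.31 and 5.33 to 13.4 and 21.0 CPM (1.89, adjusted p = 0.0442). Eln, elastin, fell from 123 and 85.0 to 56.9 and 44.2 CPM (-1.06, adjusted p = 0.0487). The contractile genes Acta2 and Tagln, also targets, had log2 fold changes of -1.96 (adjusted p = 0.419) and -0.62 (adjusted p = 0.696).

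Of 15 genes of latency and activation, 2 rose and 1 fell. Plat, tissue plasminogen activator, went from 168 and 136 to 428 and 434 CPM (1.47, adjusted p = 0.00766), and Mmp14, a membrane metalloproteinase, from 14.3 and 10.4 to 26.3 and 29.2 CPM (1.13, adjusted p = 0.0471). Lrrc32, also known as GARP, which holds latent TGF-beta at the cell surface, fell from 125 and 123 to 75.2 and 67.8 CPM (-0.83, adjusted p = 0.0236). Of 19 co-receptors, SMADs and feedback genes, Smad5, a SMAD best known from BMP signalling, rose by 0.81 (adjusted p = 0.0277) and Pmepa1, a feedback inhibitor of TGF-beta signalling, by 0.68 (adjusted p = 0.0481), while 17 did not pass. Among them the endothelial co-receptor Eng had a log2 fold change of -0.05 (adjusted p = 0.921) and Smad7, the inhibitory SMAD, of -0.46 (adjusted p = 0.560). None of the 3 proteoglycans tested passed.

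Of the 8 called genes described above, Plat was called in all 15 alternatives and the other 7 were each lost in 1 to 7. The count of 9 depended on single libraries. Leaving out WT replicate 1 gave 5 calls and leaving out WT replicate 2 gave 3, while dropping either ERG CKO library gave 16 (replicate 1) or 25 (replicate 2).

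**Figure D3:**
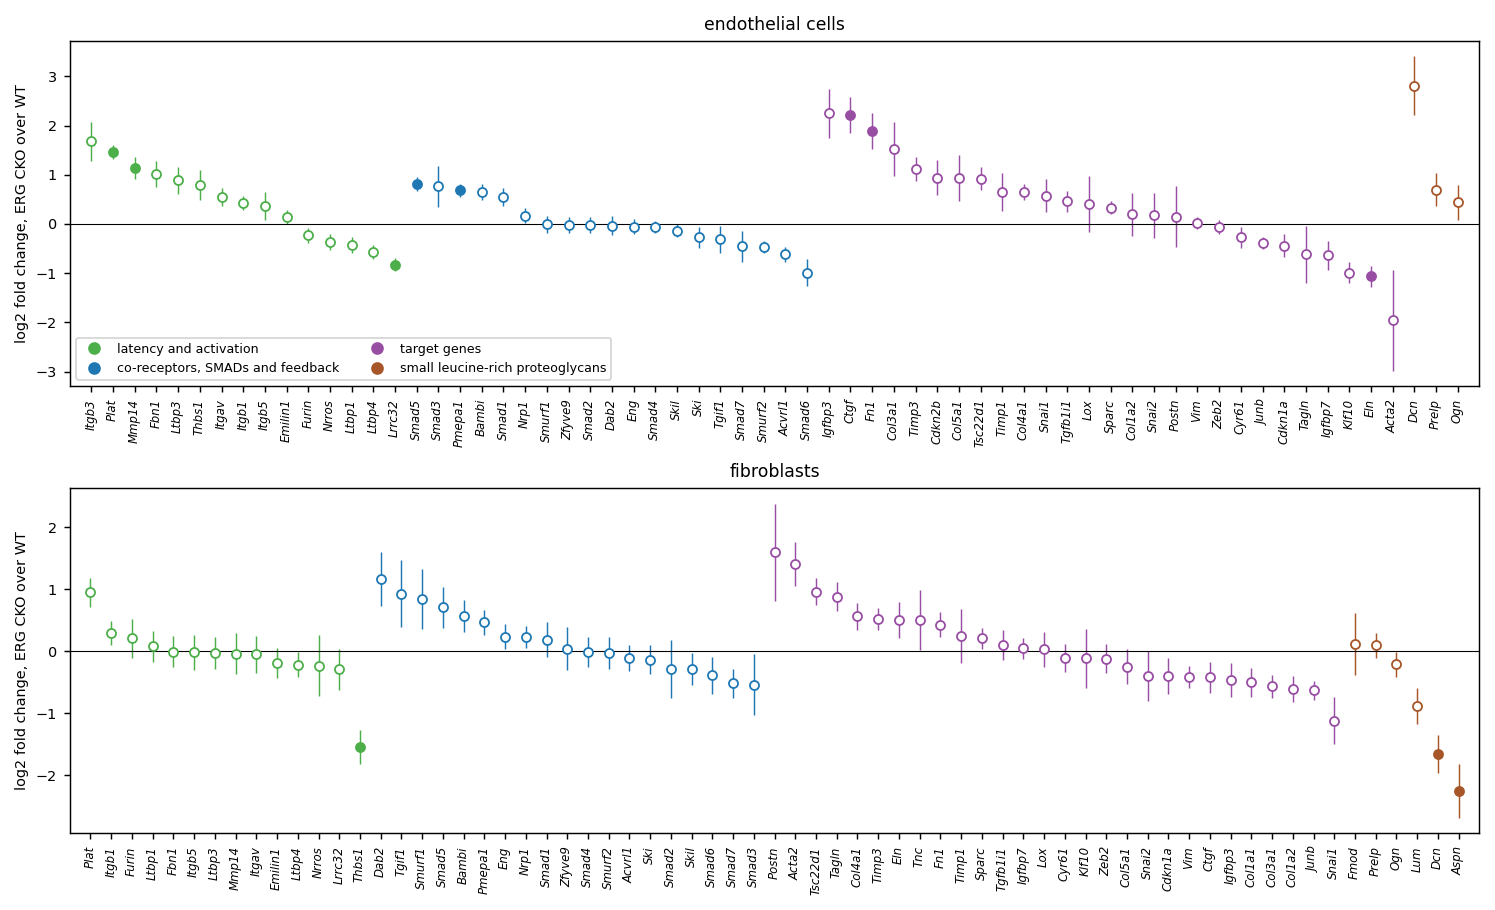
Log2 fold change (ERG CKO over WT, edgeR) with SE bars for the pathway genes described in ECs (top, 64 genes) and fibroblasts (bottom, 67 genes), coloured by list, with filled points for an adjusted p of at most 0.05. The filled points are 6 above and 2 below 0 in ECs and 3 below 0 in fibroblasts.

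The cells that hold the ligands, receptors and matrix genes were described next, by the range over the 4 libraries. Tgfb1 was spread over blood and vessel cells. It was highest in platelets (361 to 782 CPM), classical monocytes (473 to 599 CPM) and non-classical monocytes (317 to 486 CPM), whose ranges overlap, followed by B cells, interstitial and alveolar macrophages (247 to 410.5 CPM). It was lower in ECs (140 to 170 CPM), mural cells (77.2 to 134 CPM), fibroblasts (54.0 to 96.1 CPM) and epithelial cells (19.7 to 66.6 CPM). By the number of UMIs, alveolar macrophages held 20.1% to 32.5% of all Tgfb1 UMIs of a library and ECs 14.1% to 19.2%, shares that also follow how many cells of each class were captured.

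Tgfb2 was found in vessels, stroma and alveolar macrophages, with WT means of 17.5 CPM in alveolar macrophages beside 14.7 CPM in ECs. It was highest in mural cells, the pericytes and smooth muscle of vessel walls, at 79.6 and 60.9 CPM in WT and 116 and 161 CPM in ERG CKO, and lay at 19.2 to 37.5 CPM in fibroblasts and 11.9 to 29.3 CPM in alveolar macrophages. In B, T and NK cells it was at most 3.83 CPM. ECs held 17.8% (12.5 to 24.2) and 47.5% (38.2 to 56.9) of Tgfb2 UMIs in WT and 55.9% (50.7 to 61.0) and 67.0% (61.3 to 72.4) in ERG CKO. Tgfb3 was low throughout, with its highest levels in fibroblasts (4.95 to 21.6 CPM) and epithelial cells (2.70 to 17.8 CPM).

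Among the receptors, Tgfbr1 was highest in interstitial macrophages (142 to 367 CPM), alveolar macrophages (200.2 to 236 CPM) and non-classical monocytes (140.2 to 165 CPM), of which the first overlaps each of the others, and at most 72.3 CPM in every other class. Tgfbr2 was highest in fibroblasts (184 to 337 CPM) and alveolar macrophages (254 to 266 CPM), and T cells (89.2 to 125 CPM), B cells (91.4 to 105 CPM) and ECs (81.5 to 132 CPM) were close to each other. Tgfbr3 was a receptor of stroma and endothelium, at 145 to 267 CPM in fibroblasts, 123 to 387 CPM in mural cells and 80.9 to 111 CPM in ECs, and among blood cells it stood out in non-classical monocytes (54.6 to 66.0 CPM) and platelets (35.8 to 58.6 CPM). Its annotated span overlaps 3 other genes on the same strand, so some of its reads are uncertain.

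Tgfbi was a transcript of myeloid cells in both groups. It was highest in classical monocytes (648 to 730 CPM) and interstitial macrophages (389 to 639 CPM), followed by neutrophils (258 to 580 CPM) and alveolar macrophages (372 to 437 CPM), which overlap. The ERG CKO EC levels of 93.8 and 223 CPM were thus below those of classical monocytes, macrophages and neutrophils in the same libraries. ECs held 0.418% (0.191 to 0.792) and 0.627% (0.301 to 1.15) of the Tgfbi UMIs of the WT lungs, and 17.2% (15.8 to 18.7) and 27.8% (25.9 to 29.7) in ERG CKO. Bgn was highest in fibroblasts, at 1300.5 to 1843 CPM, and mural cells (686 to 1192 CPM), with no overlap between these classes. ECs held 16.8% (15.2 to 18.5) and 28.5% (25.9 to 31.2) of its UMIs in WT and 33.0% (31.5 to 34.5) and 51.8% (48.7 to 54.8) in ERG CKO. Ltbp2 was a mural cell transcript, at 447 to 741 CPM there, 2.45 to 64.4 CPM in fibroblasts and at most 14.9 CPM in every other class.

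**Figure D4:**
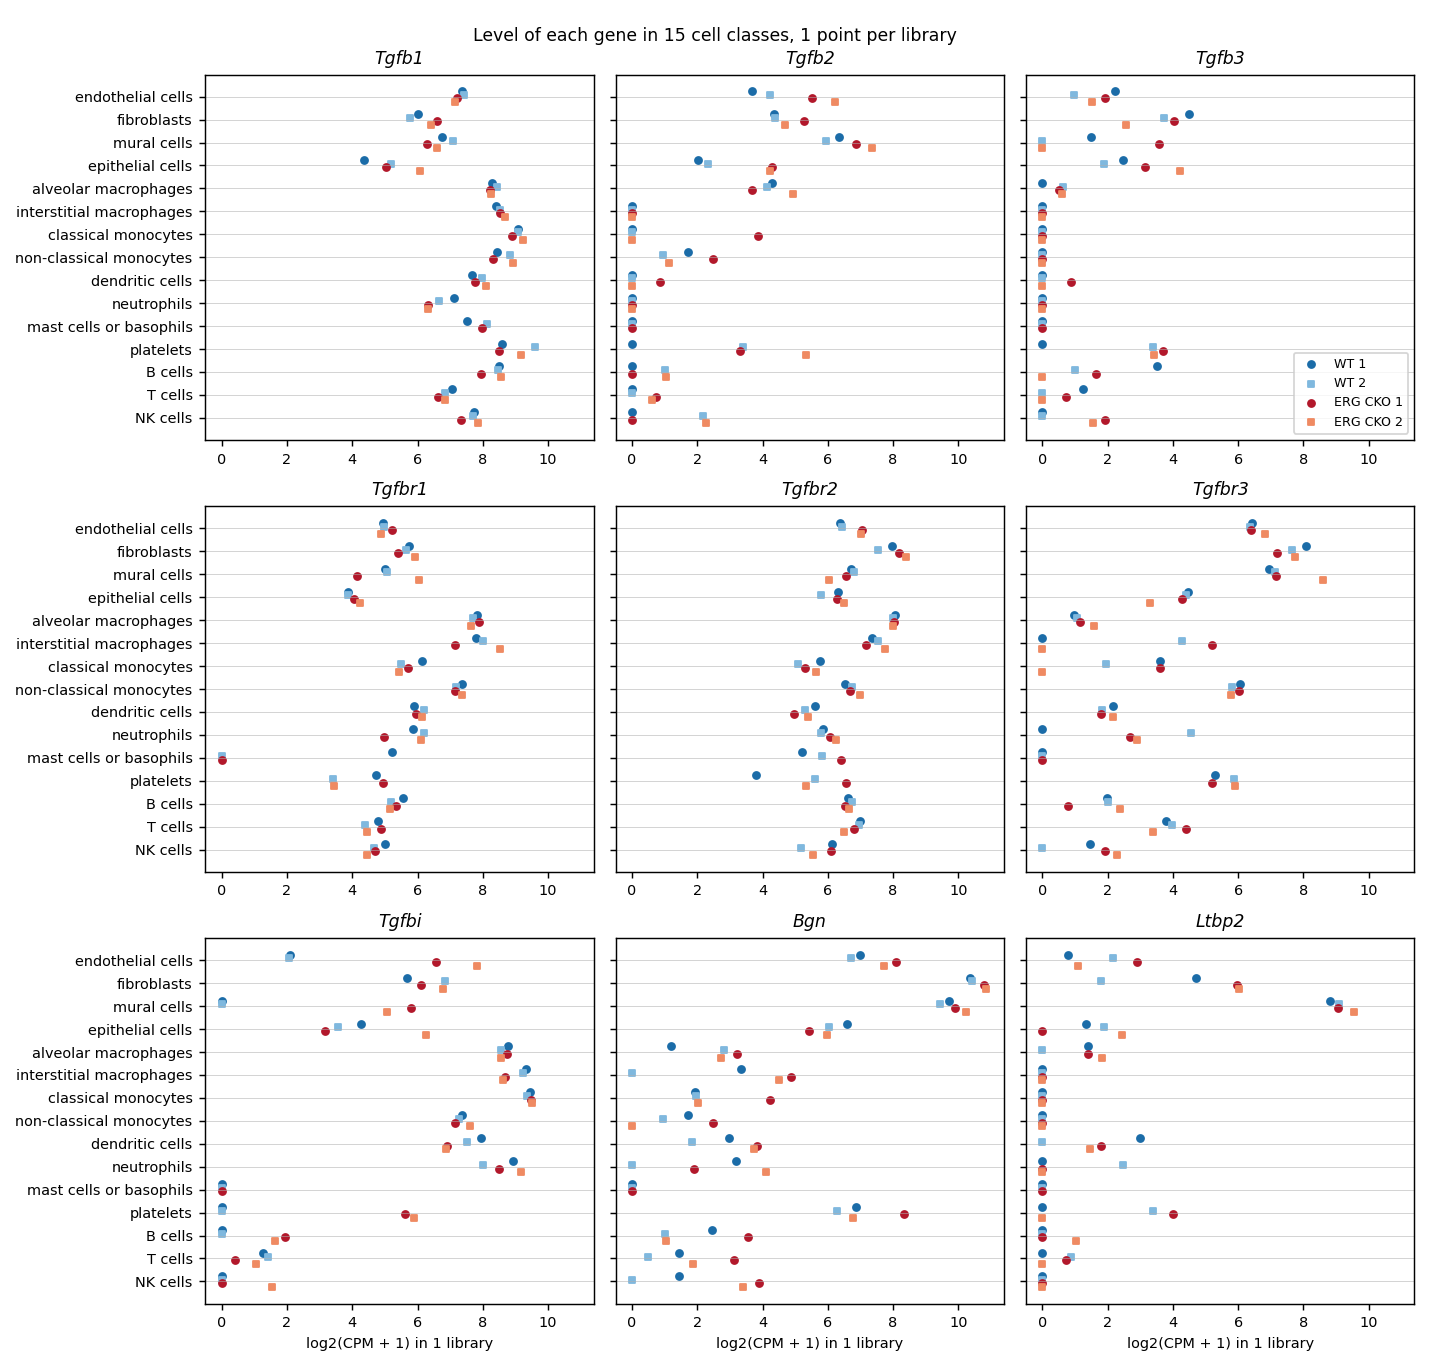
Level of each of the 9 genes in 15 cell classes, as log2(CPM + 1), with 1 point per library in 2 WT and 2 ERG CKO colours. Tgfb1 is broad, Tgfbi peaks in monocytes, macrophages and neutrophils, Bgn in fibroblasts and mural cells and Ltbp2 in mural cells, and in ECs the ERG CKO points of Tgfbi (93.8 and 223 CPM) stand apart from WT (3.31 and 3.14 CPM).

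**Figure D5:**
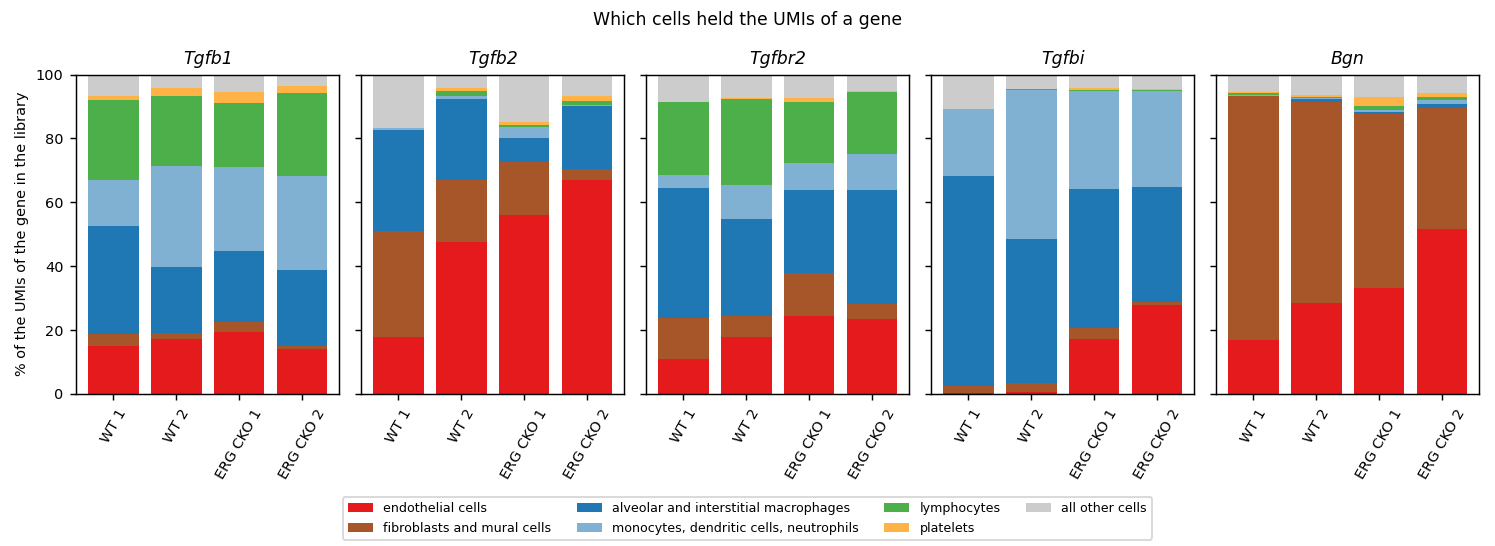
Share (%) of the UMIs of Tgfb1, Tgfb2, Tgfbr2, Tgfbi and Bgn held by each group of cell classes, with 1 stacked bar per library. The EC part of Tgfbi goes from 0.418% and 0.627% for WT to 17.2% and 27.8% for ERG CKO, and that of Tgfb1 stays between 14.1% and 19.2%.

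Fibroblasts, the matrix-producing cells on which TGF-beta acts, numbered 140 and 75 in WT mice, as against 183 and 27 in the ERG CKO mice. Of 8 members tested, 0 passed the edgeR test, beside 0.739% of the 7851 genes tested, and DESeq2 called 0. An unadjusted edgeR p under 0.05 was found for 4 of the 8, beside 710 of the 7851 genes. Ltbp2 was at 25.2 and 2.45 CPM in WT (21 UMIs and 1 UMI) and at 61.3 and 64.4 CPM in ERG CKO (67 and 13 UMIs), without overlap (log2 fold change 1.86, SE 0.48, adjusted p = 0.131). The study named it for these cells from these libraries, so it is not independent evidence. Without WT replicate 1, which leaves the WT library with 1 UMI, it passed (4.56, adjusted p = 5.21e-06). Mural cells held Ltbp2 at 447 to 741 CPM, and in fibroblasts the 9 mural markers summed to 377 and 326 CPM in WT and to 309 and 614 CPM in ERG CKO. Of the 9, 2 were higher and 1 was lower in both ERG CKO libraries than in both WT libraries. The part of mural cells in the Ltbp2 counts was not tested.

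Bgn in fibroblasts was at 1300.5 and 1376 CPM in WT and at 1756 and 1843 CPM in ERG CKO, without overlap (log2 fold change 0.43, SE 0.16, edgeR adjusted p = 0.446). Tgfb1 was at 63.6 and 54.0 against 96.1 and 84.2 CPM (0.64, SE 0.27, adjusted p = 0.496), and Tgfbr2 at 251 and 184 against 290 and 337 CPM (0.49, SE 0.23, adjusted p = 0.548). Both were higher in 2 of 2 ERG CKO libraries, and neither passed. Tgfb2 was at 19.2 and 19.6 against 37.5 and 24.8 CPM from 5 to 41 UMIs (adjusted p = 0.625). Tgfbr1, Tgfbr3 and Tgfbi overlapped between the groups, with adjusted p of 0.964, 0.664 and 0.994. Marker levels within the class also moved with the groups: the 4 alveolar fibroblast markers summed to 6423 and 6644 CPM in WT and to 3510 and 5701 CPM in ERG CKO, and the 4 adventitial markers to 959 and 964 against 578 and 530 CPM. The platelet markers Ppbp and Pf4 summed to 49.2 and 46.6 against 314 and 584 CPM, without overlap, and platelets were among the classes highest in Tgfb1. Haemoglobin transcripts reached 5570 CPM in ERG CKO replicate 1 and 27.0 to 49.5 CPM in the other libraries. Their part in the fibroblast values was not tested.

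Of the pathway lists, 68 genes were tested in fibroblasts, and 0 rose and 3 fell (4.41%), with a median log2 fold change of -0.03 beside 0.00 over all genes. Thbs1, thrombospondin-1, an activator of latent TGF-beta, fell from 593 and 581 to 250 and 119 CPM (-1.55, SE 0.27, edgeR adjusted p = 0.0173). The small leucine-rich proteoglycans decorin (Dcn) and asporin (Aspn), relatives of biglycan, fell by 1.65 (SE 0.31, adjusted p = 0.0255) and by 2.25 (SE 0.44, adjusted p = 0.0317). With DESeq2 neither proteoglycan was called. None of 29 target genes passed, 14 of them had a positive log2 fold change, and the median was -0.11. Acta2 and Tagln encode contractile proteins of smooth muscle and of activated fibroblasts. Both were higher in 2 of 2 ERG CKO libraries. Acta2 was at 18.0 and 19.6 against 49.4 and 49.5 CPM (1.41, SE 0.36, adjusted p = 0.130). Tagln was at 150.1 and 199 against 340 and 282 CPM (0.88, SE 0.23, adjusted p = 0.138). The study named both for these cells from these libraries, so they are not independent evidence. Tnc, which it also named, overlapped between the groups (adjusted p = 0.883). Junb, Col3a1 and Col1a2 were lower in 2 of 2 ERG CKO libraries (adjusted p = 0.117, 0.333 and 0.375). The calls of Thbs1, Dcn and Aspn were not kept without ERG CKO replicate 1, which leaves 27 ERG CKO cells. Levels in those cells were lower still than in replicate 1, at 119 CPM for Thbs1, 406 against 788 CPM for Dcn and 4.95 against 45.8 CPM for Aspn. With single libraries left out the log2 fold changes ran from -2.34 to -1.21 for Thbs1, -2.30 to -1.14 for Dcn and -5.11 to -1.60 for Aspn.

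In the 11 other classes 45 member tests were made and 0 passed with edgeR, beside 0.103% of the 62244 gene tests in these classes. Of the 45, 2 had an unadjusted p under 0.05, and DESeq2 called 0. The lowest adjusted p was 0.145, for Tgfbi in dendritic cells, at 245 and 180 CPM in WT and 119 and 117 CPM in ERG CKO (log2 fold change -0.83, SE 0.22). In classical monocytes, where Tgfbi was highest, its levels were 696 and 648 against 712 and 730 CPM, and in alveolar macrophages 437 and 375 against 428 and 372 CPM, and in the first of these classes alone the groups did not overlap. Epithelial Tgfbi passed without ERG CKO replicate 1 alone (2.36, adjusted p = 0.00202), which leaves 10 ERG CKO cells. In mural cells Tgfbi had 0 UMIs in 118 WT cells and, in ERG CKO, 10 UMIs in replicate 1 (55.2 CPM, at least 14.7-fold higher than a floor of 3 counts over the WT group) and 1 UMI in replicate 2, and 6 of these UMIs lay in 1 cell. In platelets it had 0 UMIs in 85 WT cells and 22 UMIs in 221 ERG CKO cells, at least 3.06-fold higher. Both had too few counts for the test (with no filter on low counts Tgfbi passed in mural cells, 6.63, adjusted p = 0.00242), and both classes were shallow in ERG CKO, with medians of 915 to 1914 UMIs per mural cell and 978 to 1148 UMIs per platelet barcode. Mural cells had 447 to 741 CPM of Ltbp2 with overlap between the groups, and Tgfb2 was higher there in 2 of 2 ERG CKO libraries, from 21 and 5 UMIs.

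The genes whose level across classes was most like that of a member were found by the Pearson correlation of log2(CPM + 10) over 30 points, the 15 classes in each of the 2 WT libraries, among 8015 genes of at least 50 CPM in some class. Points of 1 library share its depth, so no p is given. Tgfbi was nearest to the monocyte and macrophage genes Cd14 (r = 0.941), Clec4a2 (0.939) and Csf2ra (0.931). Bgn was nearest to Enpp2 (0.978), Cryab (0.971) and Sparcl1 (0.969), and Ltbp2 to Rgs4 (0.984), Agtr1a (0.982) and 4833422C13Rik (0.980). Tgfb2 was nearest to Dennd2a (0.905), Tgfbr3 to Sgce (0.881), Tgfbr1 to Ctsa (0.876) and Tgfb1 to Sh3bgrl3 (0.862). Tgfbr2 had no near match (Abca1, 0.777), and its second was Pmepa1 (0.706), while Tgfb3 stayed below 50 CPM in every class and was not compared.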

How the data were processed

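Whole lungs of 4 mice (2 WT, 2 ERG CKO) were dissociated and encapsulated by the authors on the 10x GemCode platform and sequenced on a NextSeq 500. The submitters' processing notes name Cell Ranger 3.1.0 and mm10. The authors deposited unnormalized UMI counts, 1 value for each gene in each cell, as 1 matrix of 20076 genes and 9363 barcodes. A quality filter is named without its limits, and the study states fewer cells than the matrix holds. The lowest cell had 500 UMIs and 300 genes, and none was removed. Scrublet (scanpy 1.11.5) marked 66 cells (0.705%) as doublets. They stayed in, and leaving them out was 1 of the alternatives. The strand of the counting is not given in the sources used here, so antisense neighbours of Tgfb2, Tgfb3, Tgfbr3 and Ltbp2 may share reads with them.

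The study grouped cells in BioTuring Browser 2, whereas here every cell was named anew from markers, which may differ from the grouping used by the study. Cells were clustered in Seurat 5.3.0 (R 4.3.3) with CCA alignment, 2000 variable genes, 30 dimensions and resolution 0.8, and named from marker lists when at least 3 markers led. In all, 99 proliferating cells stayed outside the 15 classes and 1032 were unnamed, 894 of them in a low-depth EC-like cluster (median 993 UMIs). ECs were clustered again with 20 dimensions and resolution 0.6.

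UMIs were summed per class and library and tested with edgeR 4.0.16 (quasi-likelihood, TMM, filterByExpr, no covariate), fitted on all genes of a class and with calls made at 0.05 after Benjamini-Hochberg adjustment. The SE is the log2 fold change over the square root of F. The test was also run on simulated data, with an outcome that is not given here. The chi-square per degree of freedom between replicates was 15.9 for WT and 17.4 for ERG CKO, well above sampling noise. Replicates are separate mice. Shares carry 95% exact (Clopper-Pearson) intervals, and a group at 0 was set at a floor of 3 counts.

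Members and lists were chosen with earlier results of these data known. The genes named are all 9 members, every pathway gene called in ECs or fibroblasts (1 target gene of the list, counted in the tests, is not reported here), and the 3 genes most like each member. Other pathway genes, Erg and single markers are named after their values were seen. Alternatives were DESeq2 1.42.0, no filter on low counts, the replicate number as a block, each library left out and doublets left out. Others were resolutions of 0.4 and 1.2, no alignment and thinning to 1000 UMIs. A further one kept ECs with fewer than 2 leukocyte and fewer than 2 mesenchyme marker genes detected. The low-depth cluster added to the ECs and the cell with the most UMIs of a gene left out were chosen after seeing the data. RefSeq promoters (GRCm38.p6) were found for 7 of the 9 members.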

Additional observations from a re-analysis of the deposited data

Results flagged for a closer look

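The cases listed had both ERG CKO libraries of a class on one side of both WT libraries and the ECs on the other. The difference between the classes was not tested, and the share of all genes with such a split is not given here. Tgfb1 was higher by 31.3 CPM in fibroblasts of ERG CKO (58.8 to 90.2 CPM in group means) and by 38.1 CPM in interstitial macrophages (352 to 390.1 CPM), and lower in ECs (167 to 143 CPM). Tgfbr2, with 83.6 CPM in WT and 130.2 CPM in ERG CKO ECs, differed by -25.2 CPM in T cells (125 to 99.6 CPM) and by -27.2 CPM in mural cells (106 to 79.1 CPM). Tgfbi differed by -94.8 CPM in dendritic cells (212 to 118 CPM), by -221.0 CPM in interstitial macrophages (622 to 401 CPM) and by -0.827 CPM in T cells (1.52 to 0.697 CPM), while in ECs its means were 3.22 and 159 CPM. Bgn differed by -28.0 CPM in epithelial cells (80.1 to 52.1 CPM), beside 115 and 241 CPM in ECs. None of these changes passed the edgeR test within its own class, and interstitial macrophages and the few Tgfbi counts of T cells were not tested there.

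The low-depth EC-like cluster of 894 barcodes, which entered no class, held the same transcripts above its WT level. In ERG CKO its mean was 23.2 CPM for Tgfb2 (WT 7.94), 83.4 CPM for Tgfbi (WT 2.50) and 238 CPM for Bgn (WT 76.1), untested.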

How the results depend on the processing

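Of 2 members called in ECs, 1 was called with DESeq2, after thinning, with the low-depth cluster added and with the highest cell left out, and 0 to 2 with single libraries left out. The 0 called in fibroblasts became 1 with no filter on low counts (Ltbp2) and 0 to 1 with single libraries left out. The 0 called in other classes became 1 with no filter (Tgfbi in mural cells), 1 with the replicate block (Tgfbi in dendritic cells, adjusted p = 0.0206) and 0 to 1 with single libraries left out. Pathway genes called in ECs, 9, became 15 with DESeq2, 32 with no filter, 26 with the block and 3 to 25 with single libraries left out. In fibroblasts 3 became 1 with DESeq2, 11 with no filter, 1 after thinning and 0 to 7 with single libraries left out. Over all genes, ECs gave 308 calls, 351 with DESeq2, 1126 with no filter, 910 with the block, 184 after thinning and 68 to 735 with single libraries left out. Fibroblasts gave 58, 30, 204, 45 and 24, and 0 to 134.

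Directions turned in small changes that passed no test. Tgfbr1 in ECs was -0.10 with cells of other markers left out, and -0.15 to 0.22 with single libraries left out, where Tgfbr3 in ECs ran from -0.026 to 0.36, Tgfbr1 in fibroblasts from -0.30 to 0.17 and Tgfbi in fibroblasts from -0.46 to 0.68. Tgfbi in ECs, with no test, ranged from 4.43 (thinned) to 6.32 (no alignment) and Bgn from 0.81 to 1.23.

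The labels number replicates 1 and 2 in both groups without saying that a number pairs mice. Deviations from the group means correlated between equal numbers at 0.33 in ECs and 0.00881 in fibroblasts, and with the block Tgfb2 (adjusted p = 0.000244) and Tgfbr2 (adjusted p = 0.0111) stayed called in ECs, while Dcn in fibroblasts was lost (adjusted p = 0.0616). Replicate 1 carried Xist and replicate 2 Ddx3y in both groups, so this block also separates the libraries by sex-linked expression. Depth limits Tgfb3, Ltbp2 outside mural cells and the classes with few cells.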
